A study of Acomys cahirinus and Mus musculus with 6 samples.

Results

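Healing ear punch wounds of the spiny mouse Acomys cahirinus, a rodent known for regrowing punched ear tissue, were compared between animals given an ErbB2 inhibitor and animals given an FGFR1/2/3 inhibitor. Both groups were wild-type, the tissue was ear pinna skin, and both agents were injected between day 12 and day 15. Each treatment was measured as 1 droplet single-cell RNA library, and the number of animals behind a library is not given in the sources used here. Library and treatment therefore cannot be told apart, no difference has a replicate check, and no test was made. The comparison takes every annotated cell type with at least 30 cells in both libraries. That held for 15 of the 17 annotated types and for 15286 of the 39577 cells of the whole series, 10582 of them from the ErbB2 inhibitor library and 4704 from the FGFR1/2/3 inhibitor library. B cells, with 28 and 59 cells, and inner root sheath cells, with 22 and 19, fell below the minimum. A library of spiny mice injected with DMSO over the same days, 15363 cells, is given beside the values as the level without an inhibitor, and it enters no ratio.

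ErbB2 is a receptor tyrosine kinase that binds no ligand of its own and signals by pairing with EGFR, ErbB3 or ErbB4 after these bind ligands of the EGF and neuregulin families. FGFR1, FGFR2 and FGFR3 are the receptors of the fibroblast growth factors, and in skin FGFR2 is the main receptor of keratinocytes while FGFR1 is known from fibroblasts. Both families feed the RAS to ERK kinase cascade and the PI3K to AKT pathway. ERK activity switches on immediate early genes such as Fos and Egr1 within minutes, then feedback inhibitors such as Dusp6 and Spry2, ETS factors such as Etv4, and cyclin D1. AKT keeps FOXO transcription factors out of the nucleus.

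The 10632 cells of the ErbB2 inhibitor library held 62542847 UMIs, each the tag of 1 captured RNA molecule, with a median of 4153 UMIs per cell. The FGFR1/2/3 inhibitor library had 4782 cells, 33564162 UMIs and a median of 5162.5 UMIs, and its smaller total made it the limit on precision. The 2 libraries shared 14 cell barcodes. Spiny mouse reads had been counted under laboratory mouse gene names, so a gene whose sequence differs much between the species could be undercounted in both libraries alike. The authors' 15 types were checked against marker genes cluster by cluster and placed in 17 classes holding 14017 cells. The keratinocyte, hair germ, outer root sheath, sebaceous, endothelial, cartilage, dendritic and T cell types kept their annotated names. None of the clusters compared under these names had more markers of another type than of their own among their 10 leading genes. Several keratinocyte and sebaceous clusters had no listed marker of any type there. Types with mixed or other markers are called by their cluster number: cluster 31 (annotated basal, with the hair follicle marker Lhx2 among its leading genes), cluster 32 (annotated fibroblasts, with fibroblast markers), cluster 34 (annotated fibroblasts, with fibroblast, melanocyte and muscle markers), cluster 38 (annotated dermal sheath and papilla, with markers of pericytes and smooth muscle), cluster 6 (annotated resident macrophages, with macrophage and dendritic markers), cluster 7 (annotated circulating monocytes, with neutrophil markers) and cluster 3 (annotated as unknown). The leading genes of cluster 3 held 4 hair follicle and sheath markers and 2 mast cell markers. UMIs were summed per library and class, scaled to CPM, the UMIs out of each 1000000 of that sum, and each gene with at least 30 UMIs in the 2 libraries together got a log2 ratio of the ErbB2 inhibitor over the FGFR1/2/3 inhibitor level. All ratios below run in that direction, and their 95% intervals cover counting error only. A gene is called higher or lower where the ratio reached 1.5-fold.

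Among the clusters with at least 10 cells in both libraries, those whose share was most enlarged with the ErbB2 inhibitor carried haemoglobin RNA. Cluster 21, annotated as suprabasal keratinocytes and led by Hbb-bs and Hba-a2, the globin chains of red blood cells, made up 6.34% of the ErbB2 inhibitor cells (exact 95% interval 5.88% to 6.82%) and 0.460% of the FGFR1/2/3 inhibitor cells (0.289% to 0.696%), against 0.970% with DMSO. Within the annotated suprabasal cells this was 674 of 3129 cells against 22 of 1201. Cluster 23, annotated as unknown, showed the same order with 3.73% against 0.376%. Both clusters were kept out of the gene comparison for their haemoglobin RNA, and without cluster 21 the suprabasal class was 22.8% of the ErbB2 inhibitor cells and 24.1% of the FGFR1/2/3 inhibitor cells.

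Among the classes that entered the gene comparison, T cells, clusters 6 and 7 and the vessel-associated classes were the smaller share with the ErbB2 inhibitor, and dendritic cells were not. T cells were 1.20% against 2.30%, cluster 7 0.969% against 1.86%, and cluster 38 0.546% against 1.23%. The intervals of shares cover counting error only. Cluster 6 was 1.76% against 2.41%, and dendritic cells were 0.847% (0.681% to 1.04%) against 0.711% (0.493% to 0.992%). Outer root sheath cells, the outer layer of the hair follicle, were 2.04% against 3.28%, and endothelial cells 4.05% against 5.02%. Interfollicular basal keratinocytes, the stem cell layer between the follicles, were 17.1% against 19.2%, and cycling basal keratinocytes 4.68% against 5.90%, both below the DMSO shares of 24.4% and 8.75%. Hair germ and outer bulge cells were 8.86% against 7.76% and sebaceous gland cells 13.2% against 12.7%. Shares of 1 library add up to a fixed total, so a larger share of one class lowers the others.

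**Figure D1:**
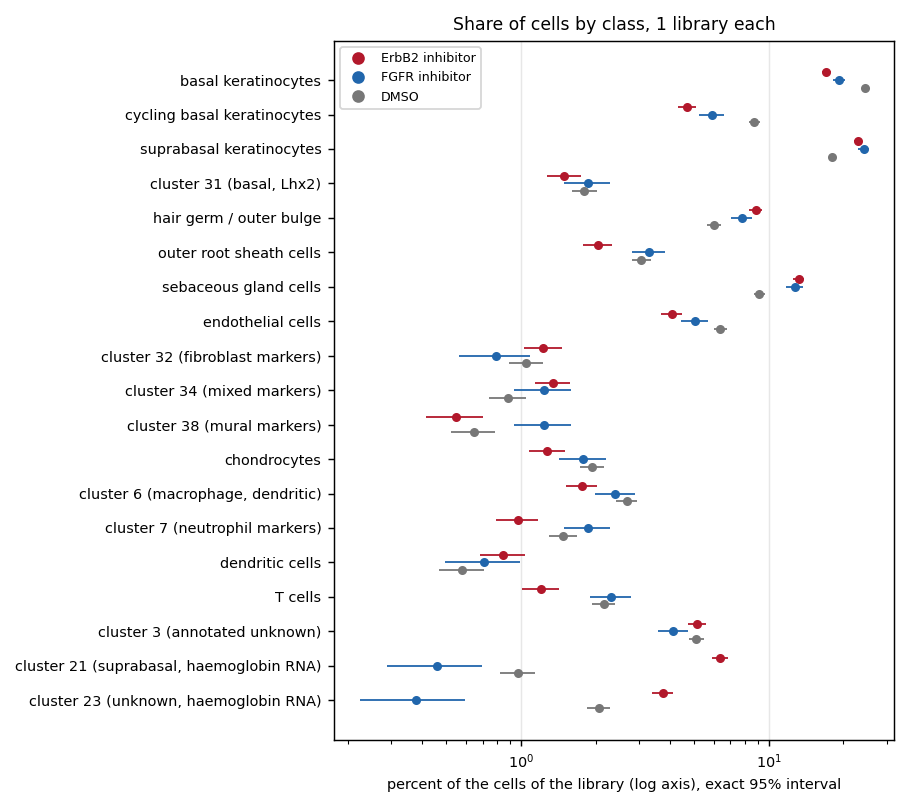
Share of the cells of each library (percent, log axis) in the 17 classes and in clusters 21 and 23, as points with exact 95% binomial intervals for the ErbB2 inhibitor (red), the FGFR1/2/3 inhibitor (blue) and DMSO (grey) libraries. The haemoglobin-carrying clusters 21 and 23 lie far apart between the inhibitors (6.34% against 0.460% and 3.73% against 0.376%), while most keratinocyte classes lie close together.

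Across the 17 classes, 83140 pairs of a gene and a class had enough UMIs, and in 7716 of them (9.28%) the gene was at least 1.5-fold higher with the ErbB2 inhibitor and in 6174 (7.43%) at least 1.5-fold lower. The whole interval lay beyond 1.5-fold in 909 and 585 pairs. Both directions together, the share called was smallest in suprabasal keratinocytes, with 5.22% higher and 4.85% lower of 9686 genes, and largest in cluster 34, with 16.5% and 10.8% of 1856 genes. In basal keratinocytes 8.32% of 9472 genes were higher and 4.28% lower, in cycling basal keratinocytes 8.75% and 5.09% of 8056, in hair germ cells 10.0% and 8.33% of 6995, in sebaceous cells 7.37% and 5.38% of 8728, and in endothelial cells 9.66% and 11% of 5920. In the classes of the hair sheath and dermis the shares higher and lower were 7.61% and 6.93% in outer root sheath cells, 10.9% and 7.18% in cluster 31, 14.5% and 8.16% in cluster 32, 11.4% and 11.8% in cluster 38 and 10.8% and 8.75% in chondrocytes. Cluster 3, annotated as unknown, had 9.96% and 15.2%. In immune classes they were 9.47% and 7.88% in cluster 6, 10.1% and 10.7% in cluster 7, 13.4% and 10.2% in dendritic cells and 11% and 10.4% in T cells. The median gene sat between −0.05 and 0.05 in every class. Scaling to CPM takes out a general shift of RNA amount between the libraries, so this median cannot show one.

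A small set of genes separated the libraries in most classes at once. Of the 6182 genes measured in at least 6 classes, 122 (1.97%) were higher in 6 or more and 50 (0.809%) lower. Of the 3677 genes measured in at least 10 classes, 30 (0.816%) were higher in 10 or more and 9 (0.245%) lower in 10 or more. The genes lower with the ErbB2 inhibitor in most classes were Dusp1 (15 of 16 classes), Rsrp1 (15 of 17), Fos (14 of 14), Anxa2 (14 of 17), Hsp90aa1 (13 of 17), Tubb4b (12 of 17), Ckb (11 of 15), Ccn1 (10 of 11) and Dbp (10 of 14). Those higher were epidermal differentiation genes (Krtdap in 15 of 17, Flg and Krt10 in 14 of 17), many of them in classes that do not make these proteins, and Mt1 (13 of 17), Il1r2 (13 of 16), Fkbp5 (12 of 12), Mt2 (12 of 14), Txnip (12 of 17), Sesn1 (11 of 13), Efna1 (11 of 12), Ifngr1 (11 of 17) and Pdk4 (9 of 9).

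Fos, the AP-1 subunit (chr12:85473890-85477273, plus strand, GRCm38; all positions are those of the laboratory mouse gene), was lower with the ErbB2 inhibitor in every class in which it could be measured. In interfollicular basal keratinocytes its level was 40.5 CPM with the ErbB2 inhibitor, 369 CPM with the FGFR1/2/3 inhibitor and 71.6 CPM with DMSO, a log2 ratio of −3.19 (−3.34 to −3.04). With every cell thinned to 1000 UMIs, 1.65% of the basal cells had a Fos UMI against 20.2%, so the difference lay in many cells. All 5 basal clusters gave the same direction, from −4.44 to −2.30. In suprabasal keratinocytes Fos stood at 22.9 CPM against 287 CPM, a ratio of −3.65 (−3.79 to −3.52), and all 7 suprabasal clusters were lower. Cycling basal keratinocytes had 11.7 against 297 CPM (−4.65, −5.11 to −4.26), and outer root sheath cells 15.4 against 448 CPM (−4.82, −5.68 to −4.15). The chondrocytes of the ErbB2 inhibitor library had no Fos UMI at all against 102 in the other, which with a floor of 3 UMIs is at least 44.4-fold lower, though 30.4% of the 102 came from 1 cell. The difference was smaller in clusters 6 and 7: Fos was 269 against 441 CPM in cluster 6 (−0.71, −0.999 to −0.43) and 358 against 545 CPM in cluster 7 (−0.60, −1.20 to −0.02). Dendritic cells had 22.5 against 197 CPM (−3.02, −4.56 to −1.93), from 7 UMIs, all in 1 cell, and 32. The DMSO level of Fos lay between the inhibitors in 12 of 14 classes and below both in 2.

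The other immediate early genes mostly shared this direction but differed in size. Fosb, a second Fos-family subunit, was lower in 9 of 9 classes (median −3.41), and in basal keratinocytes it stood at 8.28 against 62.0 CPM (−2.90, −3.25 to −2.57). Dusp1, a phosphatase that switches off p38, JNK and ERK (chr17:26505590-26562128, minus strand), was 85.4 CPM against 452 CPM in basal keratinocytes, with 123 CPM under DMSO (−2.40, −2.51 to −2.30), and ranged over the classes from −2.79 in outer root sheath cells to −0.52 in chondrocytes. Nr4a1, an orphan nuclear receptor, had 1.88 against 16.3 CPM in basal keratinocytes (−3.08, −3.88 to −2.43). Zfp36, which marks short-lived mRNAs for decay, had 16.3 against 59.1 CPM there (−1.86, −2.13 to −1.60). Egr1, the zinc finger factor usually read as an ERK output, was low in both libraries at 6.68 against 13.6 CPM in basal keratinocytes (−1.02, −1.49 to −0.57), and lower in 6 of the 6 classes that could be measured. Ccn1, a matrix protein and known target of YAP and of serum response factor, was lower in 10 of 11 classes, with 19.2 against 120 CPM in basal keratinocytes (−2.64, −2.87 to −2.42).

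Other members of the same family followed in fewer classes or not at all. Jun was lower in 7 of 15 classes and higher in 1, and in basal keratinocytes stood at 62.9 against 165 CPM (−1.39, −1.53 to −1.25). Junb had 285 against 384 CPM there (−0.43, −0.50 to −0.35) and passed 1.5-fold in 4 of 17 classes. Ier2 was nearly level at 168 against 173 CPM (−0.04, −0.15 to 0.06). Klf6, a zinc finger factor of the same immediate early list, went the other way at 210 against 82.3 CPM (1.35, 1.22 to 1.48), with 74.7 CPM under DMSO. Over the immediate early and AP-1 list, 87 of 217 gene and class pairs were lower and 18 higher, that is 40.1% and 8.30% beside the 7.43% and 9.28% of all pairs. The list's median was below 0 in 16 of 16 classes with at least 5 measured members, at −0.61 in basal, −0.95 in cycling basal and −0.68 in suprabasal keratinocytes.

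Immediate early genes are also known to rise while tissue is taken apart into single cells, and how long each dissociation lasted is not given in the sources used here. Of the heat shock chaperones, which can rise in the same handling, Hsp90aa1 was lower in most classes, with 371 CPM against 670 CPM in basal keratinocytes, with 652 CPM under DMSO (−0.85, −0.91 to −0.79). Over the whole chaperone list 25 of 168 pairs were lower and 13 higher, that is 14.9% and 7.74% beside the 7.43% and 9.28% of all pairs, and the class medians ran from −0.24 to 0.04. The part of cell handling in the immediate early difference was not tested.

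**Figure D2:**
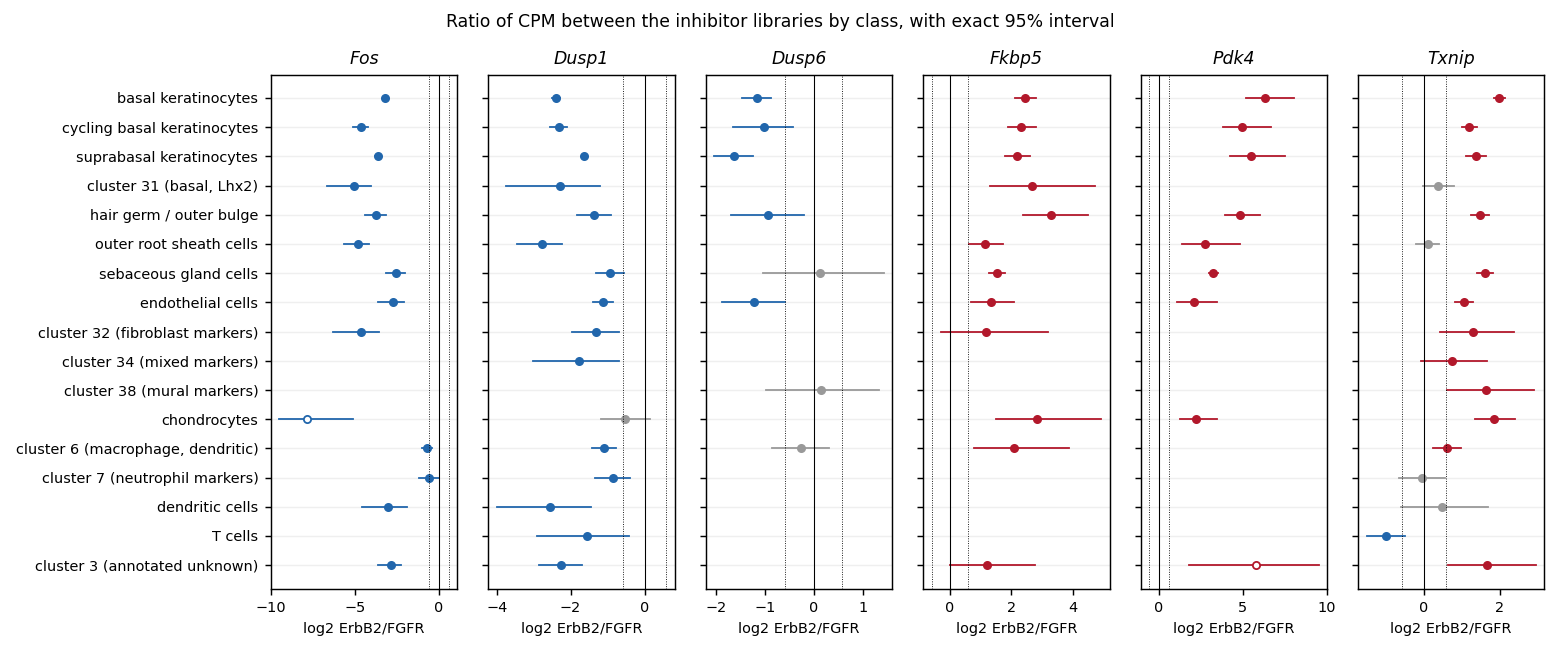
Log2 ratio of the ErbB2 inhibitor over the FGFR1/2/3 inhibitor level of Fos, Dusp1, Dusp6, Fkbp5, Pdk4 and Txnip in each class with at least 30 UMIs, as points with 95% counting intervals (red at least 1.5-fold higher, blue at least 1.5-fold lower, grey between, open where one library had no UMI, dotted lines at 1.5-fold). Fos lies left of 0 in all 14 classes and Dusp1 in all 16, Fkbp5 and Pdk4 lie right of 0 in all 12 and 9, and Txnip is lower only in T cells.

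Genes of a list of ERK feedback inhibitors, ETS factors and other ERK outputs were more often lower than higher with the ErbB2 inhibitor. Etv4, Etv5 and Errfi1 were among the exceptions. Dusp6, the phosphatase specific for ERK (chr10:99263231-99267489, plus strand), was 14.8 CPM against 33.3 CPM in basal keratinocytes, with 19.3 CPM under DMSO (−1.17, −1.47 to −0.87), and 3.78 against 11.8 CPM in suprabasal keratinocytes (−1.64, −2.04 to −1.26). It was also lower in cycling basal keratinocytes (−1.03), hair germ cells (−0.94) and endothelial cells (31.5 against 74.3 CPM, −1.22), and did not pass in sebaceous cells (0.12) or cluster 38 (0.15). Spry2, an inhibitor of receptor tyrosine kinase signalling, passed in 0 of 5 classes, with 17.97 against 20.04 CPM in basal keratinocytes (−0.16, −0.48 to 0.17). Etv4, an ETS factor and textbook target of FGF signalling (chr11:101769742-101785371, minus strand), ran the other way: 37.2 CPM against 14.5 CPM in basal keratinocytes (1.35, 1.04 to 1.69), 38.4 against 24.8 CPM in cycling basal keratinocytes (0.63, 0.22 to 1.05) and 14.7 against 7.15 CPM in suprabasal keratinocytes (1.03, 0.70 to 1.38). The DMSO level of Etv4 in basal keratinocytes, 23.98 CPM, lay between the inhibitors, above the FGFR1/2/3 and below the ErbB2 inhibitor level. Etv5 (0.73) and Errfi1 (0.80), also of this list, were higher in basal keratinocytes as well. Without cluster 16 Etv5 fell to 0.46, and without cluster 1 Errfi1 fell to 0.50. Dusp6 and Etv4 thus separated the 2 libraries in opposite directions in the same cells. Over the ERK feedback and ETS list, 32 of 100 pairs were lower and 12 higher, beside the 7.43% and 9.28% of all pairs. The list also holds Ccnd1, which is no feedback inhibitor and was lower in 9 of 13 classes. The list's median was below 0 in 7 of 8 classes, with medians of −0.06 in basal, −0.57 in cycling basal, −0.23 in suprabasal keratinocytes and −0.78 in endothelial cells.

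Cyclin D1 (Ccnd1, chr7:144929931-144939925, minus strand), which drives entry into the cell cycle, was the lower with the ErbB2 inhibitor in 9 of 13 classes and in no class higher, from −1.54 to −0.22. Hair germ and outer bulge cells had 169 CPM against 390 CPM, with 292 CPM under DMSO (−1.20, −1.41 to −0.999). Endothelial cells had 104 against 216 CPM (−1.05, −1.41 to −0.70), and basal keratinocytes 152 against 234 CPM (−0.63, −0.73 to −0.53). The DMSO level of Ccnd1 lay above both inhibitors in 8 of 13 classes and between them in 5. The genes of DNA replication did not follow in cycling basal keratinocytes, a class whose clusters are led by cell cycle genes. There 0 of 22 measured members passed in either direction (median 0.06), while 8.75% and 5.09% of all genes of the class were higher and lower. Top2a, of the mitosis list, stood at 1078 against 1065 CPM (0.02, −0.05 to 0.08). Levels within cells picked this way do not show how many cells cycle, and the share of the class was 4.68% against 5.90%. Over all classes 21 of 149 mitosis pairs were higher and 20 lower. These shares, 14.1% and 13.4%, were both above the 9.28% and 7.43% of all pairs. Mki67, the Ki-67 antigen of proliferating cells, was 487 against 631 CPM in the same cells (−0.37, −0.46 to −0.28), short of 1.5-fold.

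Of the receptors themselves, Erbb2 was measured at similar levels in most classes, while others differed in some. Erbb2 had 55.7 CPM against 57.0 CPM in basal keratinocytes (−0.03, −0.22 to 0.15), 67.2 against 61.4 CPM in suprabasal keratinocytes (0.13, 0.00 to 0.25) and 63.3 against 60.4 CPM in hair germ cells (0.07, −0.37 to 0.52). Over its 12 classes it passed in 1, cluster 32, with −0.68. Egfr, its partner, had 53.8 against 42.6 CPM in basal keratinocytes (0.34, 0.13 to 0.54). Erbb3, the neuregulin receptor that signals through ErbB2, was the exception in basal keratinocytes, at 9.69 against 3.84 CPM with 4.40 CPM under DMSO (1.32, 0.71 to 2.00), but was level in suprabasal keratinocytes (0.03, −0.41 to 0.48). Fgfr2 was 92.3 against 80.9 CPM in basal keratinocytes (0.19, 0.04 to 0.34) and level in hair germ cells at 96.3 against 96.4 CPM. It was higher with the ErbB2 inhibitor in sebaceous cells, 31.2 against 16.7 CPM (0.89, 0.52 to 1.29), and in cluster 32, 51.8 against 17.9 CPM from 54 and 6 UMIs (1.496, 0.32 to 3.04). Fgfr1 had 128 against 190 CPM in hair germ cells (−0.57, −0.84 to −0.30). Over the FGF receptor and ligand list 12 of 67 pairs were higher and 2 lower, that is 17.9% and 2.99% beside the 9.28% and 7.43% of all pairs.

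Ligands of the EGF family that passed 1.5-fold were mostly lower with the ErbB2 inhibitor. Areg, amphiregulin, a ligand of EGFR that keratinocytes make, was lower with the ErbB2 inhibitor in basal keratinocytes, 2.54 against 7.96 CPM (−1.63, −2.37 to −0.96), and in suprabasal keratinocytes, 4.49 against 13.6 CPM (−1.59, −1.97 to −1.24). Btc, betacellulin, had 64 against 91 UMIs in suprabasal keratinocytes (−1.30, −1.80 to −0.84), where 1 cell gave 27.5% of the FGFR1/2/3 inhibitor UMIs. Hbegf, heparin-binding EGF, passed in 0 of 3 classes, with 16.6 against 11.8 CPM in suprabasal keratinocytes (0.50, 0.22 to 0.78). Nrg1, a neuregulin, had only 20 and 28 UMIs in basal keratinocytes (−1.06, −1.99 to −0.20). Nrg4 was lower in 2 of 2 classes, and Nrg2 was higher in 1 of 4 classes, cycling basal keratinocytes, with 1.02. Adam17, the protease that releases these ligands from the membrane, stood at 21.4 against 12.8 CPM in basal keratinocytes (0.74, 0.38 to 1.11). Over the ErbB receptor and EGF-family list, 16 of 66 pairs were lower and 7 higher, that is 24.2% and 10.6% beside the 7.43% and 9.28% of all pairs.

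In the opposite direction, a group of genes was several fold higher with the ErbB2 inhibitor, led by Pdk4, the kinase that shuts pyruvate dehydrogenase and turns cells from glucose to fat as fuel (chr6:5483351-5496309, minus strand). Basal keratinocytes had 651 Pdk4 UMIs with the ErbB2 inhibitor and 5 with the FGFR1/2/3 inhibitor, or 61.2 CPM against 0.711 CPM, with 1.02 CPM under DMSO (6.32, 5.20 to 8.06). A Pdk4 UMI was found in 7.34% of the thinned cells against none. In hair germ cells it stood at 255 CPM against 8.76 CPM (4.82, 3.93 to 6.001), in sebaceous cells at 234 against 25.005 CPM (3.22, 2.95 to 3.52) and in suprabasal keratinocytes at 14.96 against 0.308 CPM (5.48, 4.23 to 7.49). The smallest ratio of the 9 classes was 2.11 in endothelial cells, 48.6 against 10.8 CPM. The DMSO level was below the ErbB2 inhibitor level in 9 of 9 classes and below both inhibitors in 7.

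Fkbp5, a chaperone of the glucocorticoid receptor and itself one of its textbook targets (chr17:28399094-28517527, minus strand), was higher in 12 of 12 classes, between 1.16 and 3.29. Basal keratinocytes had 65.1 CPM against 11.8 CPM, with 13.4 CPM under DMSO (2.46, 2.13 to 2.81), and each of the 5 basal clusters was higher, from 1.16 to 3.56. Hair germ cells had 88.3 against 8.76 CPM (3.29, 2.38 to 4.48). Klf15, a further known glucocorticoid target, had 49.9 against 4.87 CPM in hair germ cells (3.28, 2.09 to 5.01), and Tsc22d3, which encodes the glucocorticoid-induced leucine zipper, 16.9 against 5.83 CPM in basal keratinocytes (1.53, 1.04 to 2.07) and higher values in all 5 of its classes. Per1, both a clock gene and a glucocorticoid target, was 19.9 against 9.10 CPM in basal keratinocytes (1.13, 0.72 to 1.56). The metallothioneins, metal-binding proteins that glucocorticoids and zinc induce, differed most in hair germ cells: Mt1 had 1899 CPM against 234 CPM, with 393 CPM under DMSO (3.02, 2.83 to 3.22), and Mt2 815 against 27.3 CPM (4.89, 4.37 to 5.50). Mt1 and Mt2 are related genes, and whether reads were shared between them was not tested. Mt1 was 1437 against 627 CPM in basal keratinocytes (1.20, 1.15 to 1.25).

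A list of 22 measured glucocorticoid-induced genes was put together after these leading genes had been seen, so its counts are a description only. In basal keratinocytes 13 were higher and 3 lower (median 1.16), in hair germ cells 16 of 21 higher and 1 lower (1.32), and in sebaceous cells 11 of 20 higher and 2 lower (0.69). The medians were near 0 in suprabasal keratinocytes (0.14) and outer root sheath cells (−0.11), so Fkbp5 was higher there without most of the list. Over all classes 92 of 212 pairs were higher and 39 lower, that is 43.4% and 18.4%, both above the 9.28% and 7.43% of all pairs. Glucocorticoid targets follow the time of day, and the hour of collection is not given in the sources used here. In a list of clock genes, also added later, 20 of 119 pairs were higher and 22 lower. These shares, 16.8% and 18.5%, were also both above those of all pairs. Dbp, an output gene of the clock, was lower in 10 of 14 classes and higher in none. It was 68.4 against 106 CPM in basal keratinocytes with 163 CPM under DMSO (−0.64, −0.79 to −0.49). The part of collection time in these values was not tested.

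Txnip, which blocks glucose uptake and is a known target of glucose sensing and of FOXO factors (chr3:96557957-96561883, plus strand), was 283 CPM against 70.9 CPM in basal keratinocytes, with 53.7 CPM under DMSO (2.00, 1.86 to 2.14). It was higher in 12 of 17 classes, among them chondrocytes with 403 against 110 CPM (1.86, 1.36 to 2.41) and endothelial cells with 579 against 278 CPM (1.05, 0.83 to 1.29). T cells went the other way, with 180 against 360 CPM (−0.99, −1.51 to −0.50). Sesn1, a sestrin that restrains mTORC1 and a FOXO and p53 target, had 176 against 35.1 CPM in hair germ cells (2.31, 1.83 to 2.86) and 68.8 against 27.1 CPM in basal keratinocytes (1.34, 1.11 to 1.58). Pik3ip1, an inhibitor of PI3K, had 49.4 against 12.2 CPM in basal keratinocytes (2.01, 1.68 to 2.36) and 81.0 against 16.2 CPM in endothelial cells (2.28, 1.45 to 3.33). Over a FOXO target list, also put together after the leading genes had been seen, 64 of 219 pairs were higher and 20 lower, that is 29.2% and 9.13% beside the 9.28% and 7.43% of all pairs.

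Genes that burn fatty acids leaned the same way by smaller amounts. Acadm, the medium-chain acyl-CoA dehydrogenase of mitochondria, had 204 CPM against 109 CPM in basal keratinocytes (0.90, 0.78 to 1.02) and was higher in 10 of 17 classes. Plin2, a coat protein of lipid droplets, had 324 against 104 CPM in cycling basal keratinocytes (1.63, 1.45 to 1.82), and Angptl4, a secreted inhibitor of lipoprotein lipase and a PPAR target, 60.5 against 19.3 CPM in sebaceous cells (1.65, 1.32 to 2.00). Of the fatty acid oxidation and PPAR target list, compiled in the same way, 10 of 24 measured members were higher and 0 lower in basal keratinocytes (median 0.53), and 84 of 289 pairs were higher and 5 lower over all classes, beside the 9.28% and 7.43% of all pairs, with 17 of 17 medians above 0. Genes of oxidative phosphorylation differed less, with 25 of 567 pairs higher and 8 lower, that is 4.41% and 1.41%.

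**Figure D3:**
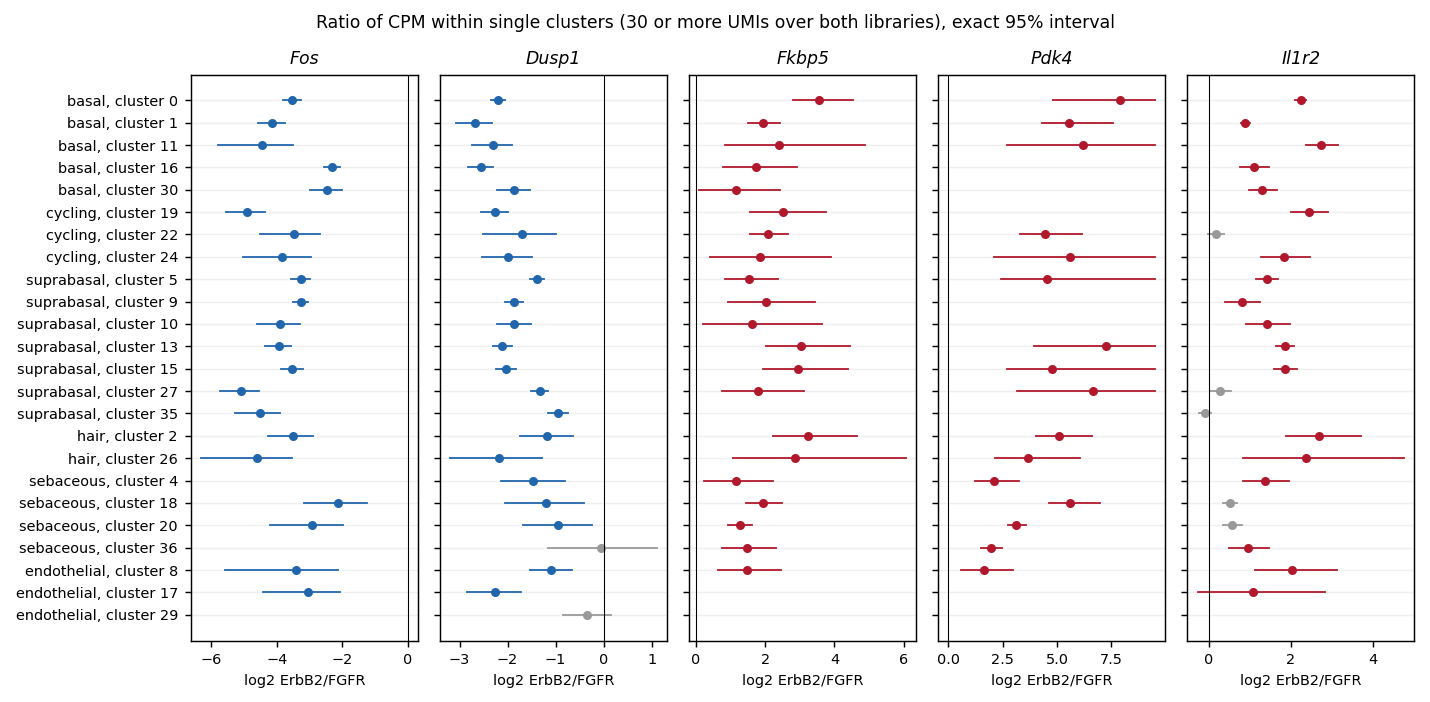
Log2 ratio of the ErbB2 inhibitor over the FGFR1/2/3 inhibitor level of Fos, Dusp1, Fkbp5, Pdk4 and Il1r2 within single clusters of the basal, cycling, suprabasal, hair germ, sebaceous and endothelial classes, with 95% counting intervals. Within basal keratinocytes Fos runs from −4.44 to −2.30 and Fkbp5 from 1.16 to 3.56, so both differences are also seen within single clusters.

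Other genes of the basal layer followed the same split. Il1r2, the decoy receptor that soaks up interleukin-1 (chr1:40074079-40125231, plus strand), was 698 CPM against 218 CPM with 139 CPM under DMSO (1.68, 1.60 to 1.76), and a UMI was found in 45.9% of thinned cells against 19.9%. Hpgd, which breaks down prostaglandins, was 355 against 103 CPM (1.78, 1.67 to 1.90), and Ifngr1, the interferon-gamma receptor chain, 573 against 264 CPM (1.12, 1.04 to 1.19). Cldn1, the tight junction claudin of epidermis, was 213 against 72.2 CPM (1.56, 1.42 to 1.70), and Efna1, an ephrin ligand, 243 against 102 CPM (1.26, 1.14 to 1.38). Fam13a had 107 UMIs against 3 (4.39, 2.98 to 6.86). On the lower side stood Igfbp3, a carrier of insulin-like growth factors (chr11:7206086-7213923, minus strand), at 607 CPM against 1792 CPM with 1030 CPM under DMSO (−1.56, −1.60 to −1.52), though within the 5 basal clusters it ran from −1.65 to 0.03. Anxa2, a membrane-binding annexin, was 753 against 1635 CPM (−1.12, −1.16 to −1.08) and lower in all 5 clusters. Ckb, brain-type creatine kinase, was 104 against 270 CPM (−1.38, −1.49 to −1.27), and the monocyte-attracting chemokine Ccl7 23.3 against 102 CPM (−2.13, −2.34 to −1.92).

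The keratins and anchors that define the basal layer stayed within 1.5-fold. Krt5 was 16095 CPM against 21004 CPM (−0.38, −0.39 to −0.37), Krt14 3088 against 3722 CPM (−0.27, −0.29 to −0.25), and Col17a1, a hemidesmosome collagen, 974 against 963 CPM (0.02, −0.03 to 0.06). Krt17, a keratin of wounded and follicle epithelium, was 352 against 557 CPM (−0.66, −0.73 to −0.60). Cycling basal keratinocytes repeated much of this: Osgin2 stood at 89.1 against 18.5 CPM (2.26, 1.85 to 2.71), Glul, glutamine synthetase, at 40.7 against 12.6 CPM (1.68, 1.17 to 2.26), Ckb at 60.6 against 174 CPM (−1.52, −1.75 to −1.30), and Stfa3, a cystatin of a family of near-identical copies, at 272 against 720 CPM (−1.41, −1.51 to −1.30).

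Genes of late epidermal differentiation were higher with the ErbB2 inhibitor in most classes, and the abundant ones differed little in suprabasal keratinocytes, which make them. In suprabasal keratinocytes the granular and cornified envelope list had 5 of 20 members higher and 0 lower (median 0.15), beside 5.22% and 4.85% of all genes of the class. Filaggrin (Flg), which bundles keratin in the outermost layers, was 2761 CPM against 2731 CPM there (0.02, −0.00 to 0.03), and Krt10, the main keratin of these cells, 81400 against 65249 CPM (0.32, 0.32 to 0.32). Asprv1, the protease that processes filaggrin, passed at 1457 against 894 CPM with 368 CPM under DMSO (0.71, 0.67 to 0.74). Of the late cornified envelope genes, which share sequence with one another, Lce1f was 264 against 114 CPM (1.21, 1.13 to 1.29) and Lce1b 125 against 13.3 CPM (3.23, 3.01 to 3.46), but 1 cell gave 23.3% of the Lce1b UMIs of the ErbB2 inhibitor library. Lce3b had 243 UMIs against 6 with 42.0% in 1 cell.

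In most classes that do not make these proteins the same list was higher, with cluster 32 as an exception. Sebaceous cells had 383 CPM of Flg against 73.9 CPM (2.37, 2.21 to 2.54), and endothelial cells 12779 CPM of Krt10 against 3896 CPM, with 12106 CPM under DMSO (1.71, 1.66 to 1.77). The median of the granular list was above 0 in 17 of 17 classes, with 120 of 187 pairs higher and 7 lower, beside the 9.28% and 7.43% of all pairs. In cluster 32 only 1 of 8 members was higher and 3 were lower (median 0.068). There 1 cell gave 84.1% of the FGFR1/2/3 inhibitor UMIs of the keratinocyte marker Krt1, and 1 cell 83.6% of those of Klk8. In basal keratinocytes 12 of its 17 measured members were higher, but only 2 of those had a level above 0.1 of that in the class where the gene is highest. The 13 keratinocyte markers together took 3.44% of the UMIs of endothelial cells with the ErbB2 inhibitor, 1.37% with the FGFR1/2/3 inhibitor and 3.75% with DMSO. The same order held in chondrocytes (2.58%, 1.30% and 3.73%), T cells (2.89%, 1.51% and 4.51%), cluster 6 (2.51%, 1.48% and 3.56%) and cluster 7 (4.93%, 3.08% and 5.48%). It did not hold in cluster 32, with 1.38%, 1.73% and 3.08%, nor in cluster 3, with 9.88%, 8.79% and 8.33%. The summed markers of its own type exceeded those of every other type in only 8 of 431 and 33 of 240 endothelial cells, and in 1 of 128 and 8 of 110 T cells. In droplet data free RNA from broken cells can enter every droplet. Its part in the keratin values outside the epidermis, and in the smaller differences of the non-epidermal classes, was not tested.

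**Figure D4:**
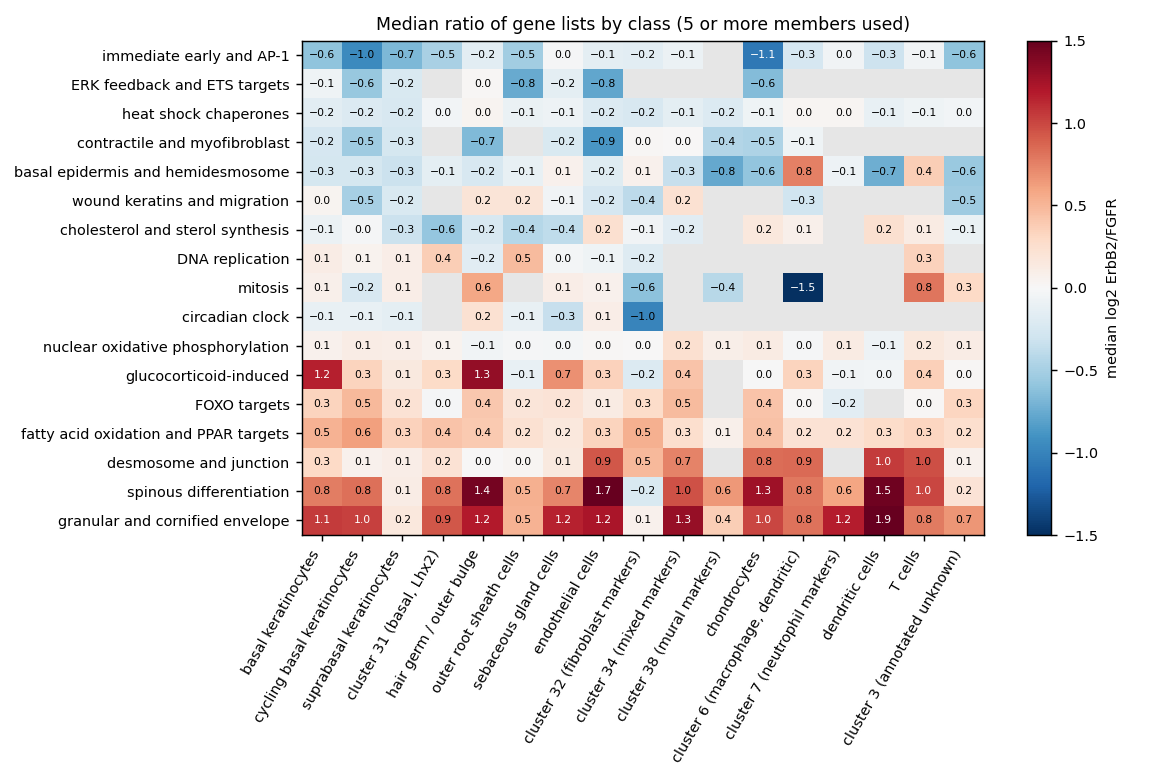
Median log2 ratio of the ErbB2 inhibitor over the FGFR1/2/3 inhibitor level for 17 gene lists (vertical) in the 17 classes (horizontal), grey where under 5 members could be measured. The immediate early list is below 0 in 16 of 16 classes and the granular list above 0 in 17 of 17, with its smallest values in cluster 32 (0.068) and suprabasal keratinocytes (0.15). In cluster 32, 1 cell gave 84.1% of the FGFR1/2/3 inhibitor UMIs of the keratinocyte marker Krt1.

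In suprabasal keratinocytes the named genes with the most extreme ratios had various roles. Wfdc17, a small secreted antiprotease, was 180 CPM against 60.8 CPM (1.56, 1.45 to 1.67), and the chemokine Ccl20, which draws CCR6-bearing cells, 158 against 54.7 CPM with 29.1 CPM under DMSO (1.53, 1.41 to 1.65). Each was higher in 6 of 7 suprabasal clusters. Fbxo2, a ubiquitin ligase subunit that binds sugar chains, was 31.02 against 10.8 CPM (1.51, 1.25 to 1.79). Tppp3, a tubulin-binding protein, was lower in all 7 clusters, at 26.5 against 73.4 CPM (−1.47, −1.62 to −1.32). The wound keratin Krt16 was 662 against 977 CPM (−0.56, −0.60 to −0.53), and Krt6a 26.975 against 50.3 CPM (−0.90, −1.06 to −0.74), the latter resting on cluster 9, without which its ratio was 0.51. Krtap3-2, a hair shaft protein of a family of near copies, was 27.3 against 3.31 CPM (3.04, 2.60 to 3.53) and rested on cluster 10, without which it was −0.07.

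Hair germ and outer bulge cells, the stem and progenitor cells of the follicle, showed the largest Mt1, Mt2, Fkbp5 and Sesn1 ratios of all classes, given above, and on the lower side several follicle genes. Pcp4, a calmodulin-binding peptide, was 44.1 CPM against 227 CPM, with 118 CPM under DMSO (−2.35, −2.72 to −2.02). Aspn, asporin, a small matrix proteoglycan that binds TGF-beta, was 250 against 806 CPM (−1.69, −1.85 to −1.53), and Krt17 383 against 1237 CPM (−1.69, −1.82 to −1.57). Krt15, the keratin that marks bulge stem cells, was 3597 against 6684 CPM (−0.89, −0.94 to −0.85). For each of these 4 genes both hair germ clusters were lower and the DMSO level lay between the inhibitors. Ifngr1 was 478 against 141 CPM (1.76, 1.51 to 2.02) and Fam13a 68.2 against 9.74 CPM (2.77, 1.89 to 3.90). The contractile genes Tagln (−3.41) and Acta2 (−2.85) were lower only through the FGFR1/2/3 inhibitor side, where 1 cell gave 54.3% and 85.7% of the UMIs.

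**Figure D5:**
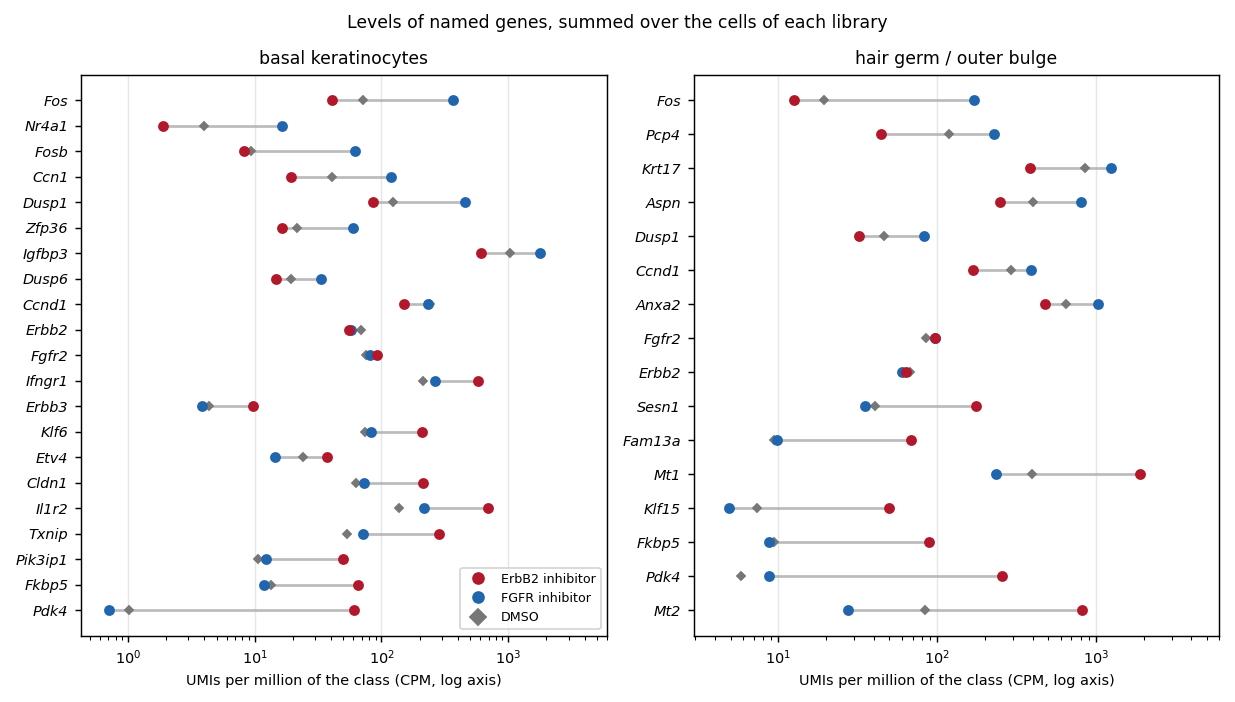
Levels (CPM, log axis) of the named genes in basal keratinocytes and in hair germ and outer bulge cells with the ErbB2 inhibitor (red), the FGFR1/2/3 inhibitor (blue) and DMSO (grey diamonds). In basal keratinocytes Fos stands at 40.5, 369 and 71.6 CPM and Pdk4 at 61.2, 0.711 and 1.02 CPM, in that order.

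In outer root sheath cells Adh7, an alcohol dehydrogenase that acts on retinol, was higher at 1197 CPM against 596 CPM (1.01, 0.86 to 1.15), as was Cyp4b1, a cytochrome P450, at 85.6 against 32.8 CPM (1.37, 0.78 to 2.03). Ehf, an epithelial ETS factor, was lower at 55.8 against 131 CPM (−1.22, −1.71 to −0.77), and thioredoxin Txn1 at 955 against 1764 CPM (−0.89, −1.0003 to −0.77). The chemokine Ccl20, higher in suprabasal keratinocytes, was lower in these cells, 58.7 against 143 CPM (−1.27, −1.74 to −0.83), with 27.9% and 26.7% of the UMIs of the libraries in 1 cell each.

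Sebaceous gland cells, which fill with lipid and burst, had several of their fat-making genes lower with the ErbB2 inhibitor. In the fatty acid and sebaceous lipid list 5 of 25 members were lower and 1 higher (median −0.12), beside 5.38% and 7.37% of all genes of the class. Plin2 was 2097 CPM against 1860 CPM (0.17, 0.14 to 0.21), and Fasn, fatty acid synthase, 961 against 1413 CPM (−0.56, −0.60 to −0.51), both short of 1.5-fold. Awat2, a wax synthase, was 160 against 260 CPM (−0.70, −0.81 to −0.59), and Far1, which makes fatty alcohols, 12.8 against 31.2 CPM (−1.28, −1.65 to −0.92). Cluster 36, led by Awat2, gave 143 of the 1404 sebaceous cells with the ErbB2 inhibitor and 89 of the 607 with the FGFR1/2/3 inhibitor. The part of this mix in the Fasn, Awat2 and Far1 values was not tested. The cholesterol synthesis list had 5 of 19 members lower and 0 higher (median −0.38), among them Nsdhl at 16.1 against 32.8 CPM (−1.02, −1.36 to −0.69). Serpina5, a serine protease inhibitor, was 110 against 399 CPM with 123 CPM under DMSO (−1.86, −1.97 to −1.75) and lower in the 3 clusters that could be measured. The mast cell proteases Tpsb2 (5.54 against 46.6 CPM, −3.06) and Mcpt4 (2.87 against 19.96 CPM, −2.77), which sebaceous cells are not known to make, were lower in the same class. The 9 mast cell markers together took 0.00128% of its UMIs with the ErbB2 inhibitor and 0.00764% with the FGFR1/2/3 inhibitor.

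In endothelial cells 7 of 19 members of the endothelial activation and angiogenesis list were lower with the ErbB2 inhibitor and 1 higher (median −0.41), beside 11% and 9.66% of all genes of the class. Kdr, the main VEGF receptor (chr5:75932827-75978458, minus strand), was 124 CPM against 281 CPM, with 169 CPM under DMSO (−1.17, −1.499 to −0.86), and lower in all 3 endothelial clusters. Flt1, the other VEGF receptor, was 62.1 against 111 CPM (−0.83, −1.32 to −0.36). Aplnr, the apelin receptor, was 99.9 against 207 CPM (−1.04, −1.41 to −0.69), and Plxnd1, a semaphorin receptor that guides sprouts, 45.0 against 122 CPM (−1.42, −1.96 to −0.92). The selectins Sele (−0.85, −1.30 to −0.42) and Selp (−0.87, −1.28 to −0.46), which catch passing leukocytes, were lower as well. Pecam1, the common endothelial junction protein, was 264 against 315 CPM (−0.25, −0.51 to −0.00), so the lower values were not shared by every endothelial gene. Flt1, Aplnr, Sele, Selp and Pecam1 were named after their values were seen. Timp4, an inhibitor of matrix metalloproteinases (chr6:115241892-115252205, minus strand), was higher at 461 against 86.4 CPM with 70.3 CPM under DMSO (2.41, 2.04 to 2.81). Of the cytoskeletal and contractile list 6 of 8 members were lower and 0 higher (median −0.88), with filamin Flna at 55.8 against 140 CPM (−1.32, −1.81 to −0.86). The 9 markers of mural cells, the contractile cells around vessels, moved with this list: together they took 0.00279% of the endothelial UMIs with the ErbB2 inhibitor, 0.0158% with the FGFR1/2/3 inhibitor and 0.00383% with DMSO. Their part in the contractile difference was not tested.

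Cluster 32, with fibroblast markers and 131 and 38 cells, showed little difference in the matrix genes of scar and regrowth. Col1a1 was 7137 CPM against 8670 CPM (−0.28, −0.34 to −0.22), Col3a1 7711 against 8488 CPM (−0.14, −0.20 to −0.08) and periostin (Postn) 2832 against 2717 CPM (0.06, −0.05 to 0.17). In the fibrillar collagen list 1 of 15 members was higher and 0 lower, where 14.5% and 8.16% of all genes of the cluster passed. Ptx3, a soluble pattern recognition protein, was 303 against 71.6 CPM (2.07, 1.48 to 2.75), and Itm2a 593 against 197 CPM (1.59, 1.22 to 1.98). Acta2, the smooth muscle actin of myofibroblasts, was 101 against 307 CPM with 109 CPM under DMSO (−1.60, −2.02 to −1.20), and 1 cell gave 25.2% of the FGFR1/2/3 inhibitor UMIs. Of the mitosis list 8 of 16 members were lower and 1 higher (median −0.61), on counts as small as the 39 and 25 UMIs of Cdk1 (−0.98, −1.76 to −0.21). In cluster 38, with 58 and 59 cells, the basement membrane collagen Col4a1 was 6285 against 3081 CPM (1.03, 0.85 to 1.21), and the contractile genes Tpm2 (824 against 1989 CPM, −1.27) and Flna (371 against 719 CPM, −0.95) were lower.

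In chondrocytes, 136 and 85 cells, members of the cartilage matrix list were higher about as often as the genes of the class in general. Col9a1 was 297 CPM against 167 CPM (0.83, 0.38 to 1.30), and Col9a3 1905 against 1135 CPM (0.75, 0.57 to 0.92), both collagens of cartilage fibrils. These were the 2 of 16 members of the chondrogenic list that passed, with 0 lower and a median of 0.27, while 10.8% and 8.75% of all genes of the class were higher and lower. Msmp was 7903 against 2922 CPM with 3179 CPM under DMSO (1.44, 1.34 to 1.54). S100a1, a calcium-binding protein of cartilage and muscle, had no UMI with the ErbB2 inhibitor against 149 with the FGFR1/2/3 inhibitor, at least 64.9-fold lower by the floor of 3 UMIs, and stood at 219 CPM under DMSO. It had no UMI in any other cell of the ErbB2 inhibitor library either, and whether a difference between the source animals of the libraries had a part in this was not tested.

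Immune classes were small, and single cells carried several of their largest differences. In cluster 6 the genes of alternatively activated macrophages Retnla (813 against 1761 CPM, −1.11, −1.27 to −0.96) and Cd209e, a lectin (362 against 768 CPM, −1.08, −1.31 to −0.85), were lower, while the CSF1 receptor Csf1r (−0.17, −0.37 to 0.04) and the invariant chain Cd74 (0.08, 0.04 to 0.11) were near level. Ccl8 was 387 against 999 CPM (−1.37), but 1 cell gave 52.0% of the FGFR1/2/3 inhibitor UMIs. In cluster 7 the cytokine gene Il1b was 985 against 3081 CPM with 1187 CPM under DMSO (−1.64, −1.96 to −1.34), and a UMI was found in 56.6% of thinned cells against 85.1%. Beta-2 microglobulin (B2m) was 3597 against 7928 CPM there (−1.14, −1.31 to −0.97). T cells had 877 against 1826 CPM of Ifitm1, an interferon-induced membrane protein (−1.06, −1.28 to −0.84), and 494 against 817 CPM of Cd8a, the CD8 co-receptor (−0.72, −1.04 to −0.41). Of the cytotoxic and helper list 5 of 11 members were lower in T cells and 0 higher (median −0.58) beside 10.4% and 11% of all their genes, among them perforin (Prf1) with 20 and 32 UMIs (−0.98, −1.88 to −0.15). In dendritic cells Mgl2, a lectin of dermal dendritic cells, was 357 against 123 CPM (1.52, 0.84 to 2.30), while in cluster 6 it was among the named lower genes. Cluster 3 had lower levels of Lmna, lamin A, at 676 against 1336 CPM (−0.98, −1.22 to −0.75) and of the cytoskeletal linker Plec at 191 against 529 CPM (−1.46, −1.88 to −1.06).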

How the data were processed

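The members and gene lists were chosen with earlier results of these data known. Per the submitters' processing notes, the authors made the deposited UMI counts with Cell Ranger 6.1.1 on GRCm38 (mm10). The deposited percent of mitochondrial reads per cell was not used in any result. Cell types and clusters are the authors' deposited annotation. Whether doublets were removed is not given in the sources used here, and no doublet caller was run.

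Raw counts were summed per library and class with Python 3.11.15, NumPy 2.4.6 and pandas 2.3.3. Ratios used CPM with 1 UMI in all added in proportion to depth, and genes with at least 30 UMIs over both libraries. Exact intervals came from SciPy 1.17.1, for counting error only. With 1 library per group no test was run. The 42 lists fixed for this comparison and 4 lists added later held 970 genes, 949 of them in the table of 20381. Named genes were the 8 highest and 8 lowest ratios per class by the interval end nearest to 0 (3 and 3 in classes under 100 cells), among genes with at least 100 UMIs and at least 0.1 of the level of the class with most, up to 4 members per list, the genes apart in the most classes, and a fixed set of receptors, targets, keratins and matrix genes. Acadm, Adam17, Angptl4, Aplnr, Awat2, Btc, Cd74, Cd8a, Cdk1, Col1a2, Col9a1, Col9a3, Csf1r, Efna1, Errfi1, Far1, Fasn, Flt1, Hbegf, Ier2, Jun, Klf6, Nrg2, Nrg4, Nsdhl, Pecam1, Per1, Prf1, Sele, Selp, Tagln and Tsc22d3 fell outside this rule and were named after their values were seen. The calculations were tested on simulated data. TMM scaling by edgeR 4.0.16 (R 4.3.3) was an alternative only. Positions came from the GRCm38 annotation.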

Additional observations from a re-analysis of the deposited data

Results flagged for a closer look

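Opposite directions in different classes were common at 1.5-fold: of the 4384 genes higher in at least 1 class, 3100 were lower in none. In 7 genes the ratio of the ErbB2 inhibitor over the FGFR1/2/3 inhibitor level reached 2-fold in opposite directions in 2 classes with both intervals wholly beyond 1.5-fold, at least 100 UMIs in each class and at least 0.1 of the level of the class with most. The difference between the classes was not tested. Ccl20 was 1.53 in suprabasal keratinocytes, where 1 cell gave 5.68% of the UMIs of the higher library, and −6.27 in cluster 6, where 1 cell gave 95.6%. Chit1, a chitinase, was 1.12 in hair germ and outer bulge cells (1.40% in 1 cell) and −2.33 in cluster 32 (85.9%). Hp, haptoglobin, was 1.18 in cluster 7 (7.62%) and −4.48 in chondrocytes (37.5%). Ifitm3 was 1.36 in cluster 6 (11.1%) and −1.10 in dendritic cells (46.6%). Klk8, a kallikrein of epidermis, was 1.33 in endothelial cells (3.30%) and −1.36 in cluster 32 (83.6%). Krt1 was 1.66 in endothelial cells (7.35%) and −1.12 in cluster 32 (84.1%). Ly6d was 1.60 in cluster 6 (25%) and −1.33 in cluster 32 (50.9%). In 5 of the 7 genes, 1 cell of the FGFR1/2/3 inhibitor library held over 50% of that library's UMIs on the lower side.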

How the results depend on the processing

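With 1 library per treatment, no library could be left out. No paired analysis was possible because each group has 1 library and no ratio comes from a test. Only a part of the single-gene values was recomputed under the alternatives. Of 1725 such recomputed values, 1481 stayed within their counting interval, 242 moved outside it and 2 reversed. Krtap3-2 in suprabasal keratinocytes was −0.070 without cluster 10, and Krt6a was 0.51 without cluster 9. Minimums of 10 and 100 UMIs, with 121 of these values each, change only which genes are used. Those values could therefore not move. Genes that fell under 1.5-fold in some setting included Ccnd1 in basal keratinocytes (−0.47 at the smallest), Krt17 in suprabasal keratinocytes (−0.03), Ccl20 in outer root sheath cells (−0.55 in thinned cells), Cd36 in sebaceous cells (−0.48 without cluster 36) and Fos in cluster 6 (−0.37). So did Dusp6 in cycling basal keratinocytes (−0.46 without cluster 19) and Dbp in basal keratinocytes (−0.47 without cluster 1). The number of pairs called depended on depth and threshold: 17360 higher and 15020 lower with at least 10 UMIs, 2465 and 1662 with at least 100, 4432 and 3240 in cells thinned to 1000 UMIs, and 2371 and 1353 at 2-fold. Genes higher in 10 or more classes numbered 18 without those under 0.1 of the level of the class with most, and with classes of at least 100 cells only, 67 were higher and 17 lower in 6 or more. In basal keratinocytes the immediate early median was −0.32 in thinned cells, −0.73 at the same mix of clusters, −0.86 without cluster 1 and −0.51 without low members. In suprabasal keratinocytes it was −0.44 thinned, −0.56 as a mean over cells, and −0.54, −0.58 and −0.54 without clusters 9, 13 and 15. The ERK feedback median changed sign: in basal keratinocytes it was 0.068 at the same mix, −0.20 without cluster 1 and 0.049 without cluster 16, and in suprabasal keratinocytes 0.24 thinned and −0.41 without low members. The granular median in suprabasal keratinocytes was 0.26 as a mean over cells, 0.30 at the same mix and 0.44 without cluster 35, and in basal keratinocytes 0.82 thinned, 0.94 as a mean, 0.79 at the same mix, 0.88 without cluster 1 and 1.24 without low members. The collagen median in cluster 32 was −0.12 thinned and −0.057 as a mean. In basal keratinocytes the glucocorticoid median was 0.93, 0.74 and 1.30 without clusters 0, 1 and 16, and the fatty acid oxidation median 0.35 without low members. Cluster 21 was 8.71% of the ErbB2 inhibitor cells with at least 2000 UMIs. Among cells of that depth 28 of 38 other shares moved outside their interval and 10 did not. The cause of these moves was not tested. The alternative of keeping only cells led by markers of their own type was not run for endothelial cells, clusters 34 and 38, chondrocytes, dendritic cells and T cells, which had fewer than 30 such cells in a library. It was not run for cluster 3 either, which is annotated as unknown and was given no type of its own.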

Other observations

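Some genes were nearly confined to one inhibitor library when all of its cells were summed, outside the cell types compared above. The inner root sheath keratins, which stiffen the sheath that moulds the hair, were lower with the ErbB2 inhibitor although both libraries held a few inner root sheath cells. Krt27 had 80 UMIs against 2145 (log2 ratio −5.63, −5.98 to −5.32), Krt71 118 against 2668 (−5.39, −5.68 to −5.13) and Krt25 408 against 4805 (−4.45, −4.61 to −4.31). Of these, 15, 44 and 72 UMIs lay in the 22 annotated inner root sheath cells of the ErbB2 inhibitor library, and 2030, 2490 and 4050 in the 19 of the FGFR1/2/3 inhibitor library. Trichohyalin (Tchh), which cross-links with these keratins, differed less, with 505 UMIs in the 22 cells against 1054 in the 19. The same 22 cells held 946 UMIs of Lce1b and 493 of the hair shaft gene Krtap11-1, where the 19 cells held 2 and 7. The summed levels of these genes thus differed between the 22 and the 19 cells, both fewer than the minimum used for the cell types above. The 91 inner root sheath cells of the DMSO library held both groups of genes. They had 24865 UMIs of Krt25, 14583 of Krt71, 1826 of Lce1b and 7479 of Krtap11-1. The part of single cells, and of a mix of sheath and shaft cells under this label, was not tested.

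S100a1 had no UMI among the 62542847 of the ErbB2 inhibitor library. It had 328 UMIs in 182 cells of the FGFR1/2/3 inhibitor library, at least 204-fold more by a floor of 3 UMIs, and 436 UMIs in 247 cells of the DMSO library. The part of a difference between source animals in this value was not tested. Tchhl1, a relative of trichohyalin, also had none against 358 UMIs, of which 352 lay in inner root sheath cells and all in 8 cells, and it had 2026 UMIs with DMSO.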
